A study of Mus musculus with 12 samples.

Results

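The neurotrophic factor genes *Bdnf*, *Ntf3*, *Ntf5*, *Gdnf*, *Artn* and *Cntf* and the nerve repair genes *Ngfr* and *Gap43* were measured in mouse skeletal muscle. These 8 were picked by symbol from the 27179 genes of the deposited count table. The samples were 12 tibialis anterior (TA) muscles of 6 male wild-type C57BL/6N mice that were 6 to 8 weeks old on arrival and were used within 2 weeks. Each mouse received 10 μg of the empty plasmid pcDNA3 in the TA of 1 leg by electroporation (Control, n = 6 muscles) and, in the other leg, 10 μg of a plasmid from which the cytomegalovirus promoter drives the full-length human long non-coding RNA *FRAIL1* (FRAIL1, n = 6 muscles). Both TAs were taken at day 7, and poly(A)+ RNA of the muscle tissue was sequenced. Electroporated plasmid enters some of the fibers of a muscle, while the RNA came from all cells of the tissue. The human transcript itself has no row in this table of mouse genes, so the labels could not be checked against it.

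Neurotrophins are secreted as proproteins, cleaved by furin-like enzymes or by plasmin and matrix metalloproteinases, and signal through Trk receptor kinases. The uncleaved proforms signal through the p75 neurotrophin receptor, the product of *Ngfr*, together with sortilin-type coreceptors. GDNF and artemin bind GFRα proteins that hand the signal to the kinase RET, and CNTF binds CNTFR together with LIFR and gp130. In skeletal muscle such factors are known as cues for motor and sensory axons, and both fibers and Schwann cells can make them.

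No member of the set passed an adjusted p of 0.05 between FRAIL1 and Control muscles in the edgeR fit without a block, and *Cntf* had too few counts to be tested. Of the other 7 genes, 0 were called by edgeR (quasi-likelihood F-test, p-values adjusted by Benjamini-Hochberg), beside 6.28% of all 15502 genes tested. An unadjusted p under 0.05 was reached by 2 of the 7, *Ngfr* and *Gdnf*, both with higher estimates in FRAIL1 muscles, beside 27.7% of all genes tested. The levels of the 2 groups overlapped for each of the 8 genes, whereas the 6 values of 1 group lay wholly above those of the other for 4.88% of genes tested. On the log2 scale 3 of the 7 estimates were above 0 and 4 were below, with a median of -0.00051, against a median of 0.0096 over all genes tested. Other fits drew the line elsewhere for *Ngfr* and *Gdnf*. With the replicate number as a block, which pairs muscles of the same number, edgeR called 1 of the 7, *Ngfr*, beside 14.1% of all genes. DESeq2 called *Ngfr* and *Gdnf*, beside 14.1% of the genes to which it gave an adjusted p without the block and 19.0% with it, and limma voom called 0 of the 7 beside 11.8%.

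Library totals ran from 44848322 to 60527385 counts, so that 1 count was worth between 0.0171 and 0.0235 CPM (counts scaled to library size with edgeR's TMM factors). Fiber genes dominated every library, as the tissue label says: 8 muscle fiber markers summed to between 132600 and 158287 CPM in Control and between 104577 and 141337 CPM in FRAIL1 muscles. FRAIL1 muscle 5 stood apart from the others, with the highest TMM factor (1.19) and the highest sum of 8 fibroblast markers (4977 CPM, against 1030 to 1849 CPM in Control muscles). Of that sum in FRAIL1 muscle 5, *Col3a1* held 2531 CPM and *Col1a1* 1969 CPM. Values without this muscle are therefore given where it moves a result. In bulk RNA a lower level in each cell and a smaller number of the cells that hold a transcript cannot be told apart.

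Among the neurotrophins, *Ntf5* (gene ID 78405, chromosome 7, 45413695 to 45417179, plus strand, GRCm38), which encodes neurotrophin 4, a ligand of TrkB, was by far the most abundant. Its CPM ran from 11.0 over a median of 14.5 to 17.1 in Control muscles and from 12.2 over 13.1 to 18.2 in FRAIL1 muscles. The groups covered nearly the same span, and the FRAIL1 muscle was the higher one in 3 of 6 same-numbered pairs. Its mean was 14.0 ± 2.47 CPM (SD, n = 6) against 14.0 ± 2.25 CPM (SD, n = 6). The log2 fold change was -0.00051 (SE 0.123, 95% interval -0.26 to 0.26; edgeR adjusted p = 0.999).

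*Ntf3* (gene ID 18205, chromosome 6, 126101412 to 126166772, minus strand) encodes neurotrophin 3, the preferred ligand of TrkC and a known survival factor of the proprioceptive neurons that innervate muscle spindles. It ran from 1.49 over a median of 1.98 to 2.28 CPM in Control and from 1.23 over 1.62 to 2.06 CPM in FRAIL1 muscles. The FRAIL1 muscle was the lower one in all 6 pairs, with FRAIL1-to-Control ratios between 0.685 and 0.984, although the groups overlapped. Means were 1.96 ± 0.334 and 1.60 ± 0.298 CPM (SD, n = 6 each). That difference did not pass the test (log2 fold change -0.29, SE 0.166, 95% interval -0.64 to 0.06; edgeR adjusted p = 0.267). It did not pass with the replicate block either (edgeR adjusted p = 0.191), and over all 23 alternatives the adjusted p stayed between 0.137 and 0.461.

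*Bdnf* (gene ID 12064, chromosome 2, 109674700 to 109727043, plus strand), encoding brain-derived neurotrophic factor, the other main TrkB ligand, was scarce. Control muscles held between 0.936 and 1.43 CPM with a median of 0.997, and FRAIL1 muscles between 0.568 and 2.13 CPM with a median of 1.21. FRAIL1 muscles lay farther apart, with an SD of 0.583 CPM around a mean of 1.32 CPM against 0.186 CPM around 1.06 CPM in Control (n = 6 each), a difference in spread that was not tested. FRAIL1 muscles 5 and 6 lay above every Control muscle, FRAIL1 muscle 2 lay below every Control muscle, and the FRAIL1 muscle was higher in 4 of 6 pairs. The log2 fold change was 0.31 (SE 0.271, 95% interval -0.26 to 0.89; edgeR adjusted p = 0.473), and it ranged from 0.12 without FRAIL1 muscle 5 to 0.47 without FRAIL1 muscle 2. An antisense gene, *Gm45346*, covers 14.4% of the exonic bases of *Bdnf*, and the strand setting of the counting is not given in the sources used here, so part of these counts may belong to it.

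**Figure D1:**
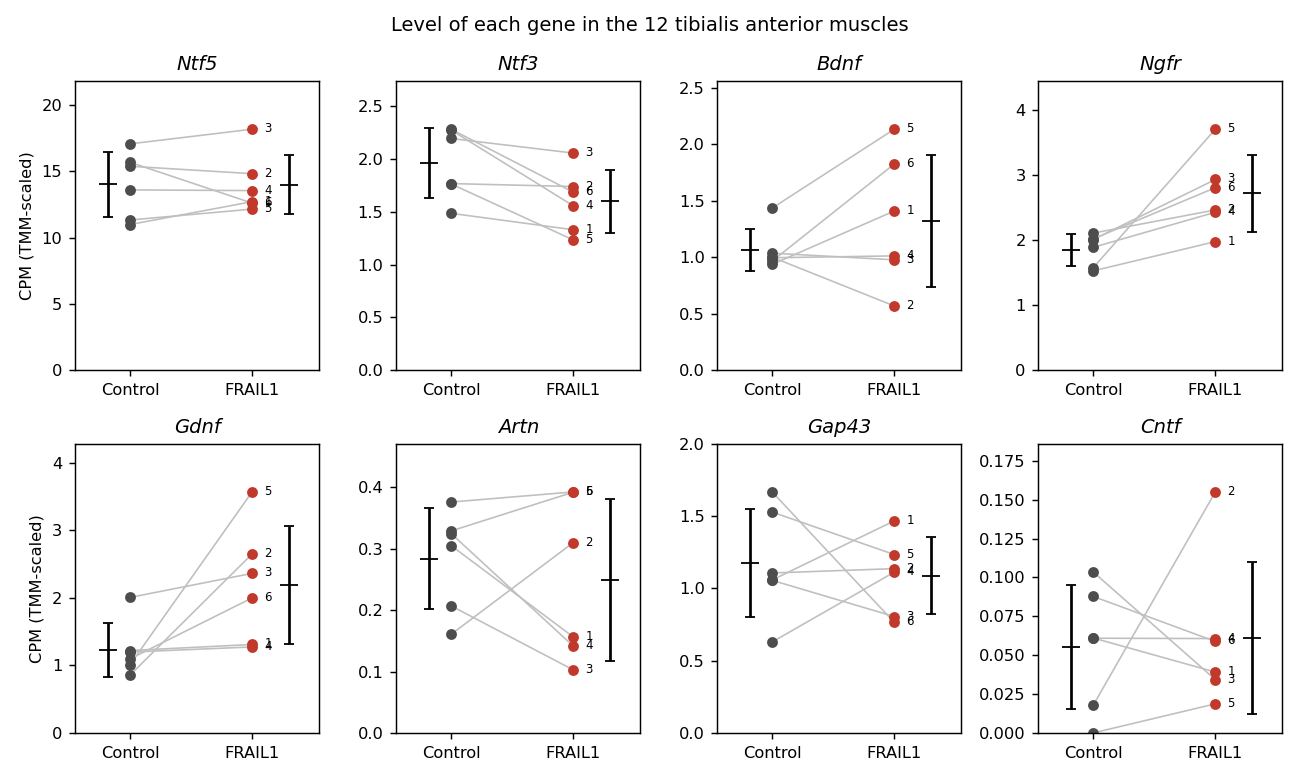
Level of each of the 8 genes (y axis, TMM-scaled CPM from 0) in the 6 Control (grey) and 6 FRAIL1 (red) muscles; grey lines join muscles of the same number, numbers stand at the FRAIL1 points, and bars give the mean ± SD of the 6 muscles. All 6 lines slope upward for Ngfr and Gdnf and downward for Ntf3, yet the groups overlap in every panel.

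Of the ligands of the GDNF family, *Gdnf* (gene ID 14573, chromosome 15, 7810048 to 7837580, plus strand), known as a potent survival factor of motor neurons, had the largest estimate of the 8 genes. Control muscles held 0.857 to 2.01 CPM with a median of 1.15, and FRAIL1 muscles 1.27 to 3.57 CPM with a median of 2.18. All 6 FRAIL1 muscles exceeded the Control muscle of the same number. The excess was uneven: the ratio was 3.53 for number 5, 3.10 for number 2 and 1.82 for number 6, and between 1.06 and 1.18 for the other 3 numbers. A single Control muscle, number 3, at 2.01 CPM, lay among the FRAIL1 values. Means were 1.23 ± 0.403 and 2.20 ± 0.872 CPM (SD, n = 6 each), a log2 fold change of 0.84 (SE 0.267, 95% interval 0.27 to 1.41; edgeR unadjusted p = 0.00678 and adjusted p = 0.0679). Adjusted p was 0.0624 with the replicate block and 0.0252 by DESeq2. Without FRAIL1 muscle 5 the log2 fold change was 0.64 (edgeR adjusted p = 0.136), and it was 0.58 or more under all 23 alternatives.

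*Artn* (gene ID 11876, chromosome 4, 117925908 to 117930795, minus strand), encoding artemin, the ligand of GFRα3, was close to the lower end of detection at 6 to 21 counts per muscle. Its CPM lay between 0.161 and 0.376 in Control (median 0.315) and between 0.103 and 0.393 in FRAIL1 muscles (median 0.233), with the Control span inside the FRAIL1 span and the FRAIL1 muscle higher in 3 of 6 pairs. A log2 fold change of -0.18 with a 95% interval from -0.98 to 0.63 (SE 0.377; edgeR adjusted p = 0.795) leaves changes of up to about that size in both directions undetectable at this depth.

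*Cntf* (gene ID 12803, chromosome 19, 12763528 to 12765632, minus strand), the ciliary neurotrophic factor made by myelinating Schwann cells, had too few counts to enter the test. Control muscles 1 to 6 held 3, 1, 5, 3, 0 and 4 counts, and FRAIL1 muscles 1 to 6 held 2, 9, 2, 3, 1 and 3 counts. Mean levels were 0.0552 and 0.0611 CPM, and an exact permutation test over the 924 splits of the 12 muscles gave p = 0.846 (two-sided). Little of the gene could be counted to it alone. Of its 1073 exonic bases, 847 (78.9%) are also exonic in the neighboring gene *Zfp91* in this annotation, which leaves 226 bases of its own, and a read in shared exons need not be assigned to either gene. *Zfp91* itself held 4890 to 9846 counts per muscle, while *Gm44505*, the read-through gene of the pair, was listed at 0 in all 12 muscles.

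*Ngfr* (gene ID 18053, chromosome 11, 95568818 to 95587698, minus strand) encodes the p75 neurotrophin receptor, which is known to return in Schwann cells that have lost their axon. It came closest to the threshold of the 8 genes. Control muscles lay between 1.53 and 2.11 CPM with a median of 1.95, and FRAIL1 muscles between 1.98 and 3.70 CPM with a median of 2.63. Only FRAIL1 muscle 1, at 1.98 CPM, fell inside the Control range, and each FRAIL1 muscle exceeded its Control muscle, by ratios of 1.17 to 1.46 for 5 numbers and 2.35 for number 5. Mean levels were 1.85 ± 0.245 and 2.72 ± 0.587 CPM (SD, n = 6 each), a log2 fold change of 0.55 (SE 0.159, 95% interval 0.21 to 0.89; edgeR unadjusted p = 0.00333 and adjusted p = 0.0509). With the replicate block the edgeR adjusted p was 0.0415, and DESeq2 gave 0.0139 without and 0.0273 with the block. An adjusted p under 0.05 was reached in 6 of 23 alternatives. Without FRAIL1 muscle 5 the log2 fold change was 0.44 (edgeR adjusted p = 0.0907), and without both muscles numbered 5 it was 0.40 (edgeR adjusted p = 0.139).

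The start regions of *Ngfr* and *Gdnf*, the 2 genes with the lowest p, were read from RefSeq on GRCm38.p6, as windows of 300 bases that lie mostly before each annotated start. They are shown because E-boxes (CANNTG, read on both strands), the motif bound by myogenin and other myogenic factors, can be looked up in them, and *Myog* itself rose in these muscles. Capitals mark each E-box. The *Ngfr* sequence is chr11:95587649-95587948 on the minus strand, and the *Gdnf* sequences are chr15:7809798-7810097 and chr15:7813477-7813776 on the plus strand, all written 5′ to 3′ in the direction of the gene.
Ngfr: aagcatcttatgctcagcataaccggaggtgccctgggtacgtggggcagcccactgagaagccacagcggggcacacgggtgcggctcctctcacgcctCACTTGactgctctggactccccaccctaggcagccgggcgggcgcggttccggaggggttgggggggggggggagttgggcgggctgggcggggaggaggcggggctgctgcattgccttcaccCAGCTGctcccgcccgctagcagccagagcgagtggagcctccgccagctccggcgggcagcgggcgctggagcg
Gdnf, upstream start: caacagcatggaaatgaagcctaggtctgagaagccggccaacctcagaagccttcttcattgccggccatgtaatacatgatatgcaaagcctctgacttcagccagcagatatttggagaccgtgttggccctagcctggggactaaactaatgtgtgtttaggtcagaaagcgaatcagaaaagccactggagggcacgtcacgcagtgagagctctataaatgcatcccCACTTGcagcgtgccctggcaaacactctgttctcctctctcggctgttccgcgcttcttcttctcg
Gdnf, downstream start: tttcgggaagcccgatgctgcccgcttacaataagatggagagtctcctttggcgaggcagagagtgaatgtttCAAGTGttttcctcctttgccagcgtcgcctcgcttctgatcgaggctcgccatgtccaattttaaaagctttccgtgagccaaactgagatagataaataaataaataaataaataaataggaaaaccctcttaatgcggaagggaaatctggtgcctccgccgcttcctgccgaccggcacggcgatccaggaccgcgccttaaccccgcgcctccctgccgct
The *Ngfr* window holds 2 E-boxes, of which 1 is the palindrome CAGCTG, and each *Gdnf* window holds 1. Members with estimates below 0 hold them too: the *Artn* window has 2, of which 1 is CAGCTG, and the *Ntf3* windows have 2 and 1. Such matches are common: 72.3% of the 32851 promoters of the same length hold a CANNTG and 16.3% hold a CAGCTG. The RUNX motif (TGTGGT or its complement ACCACA) was searched as well, since *Runx1* rose (log2 fold change 0.89, edgeR adjusted p = 0.0277, and 0.0678 with the replicate block), and its letters are in none of the 3 windows, against 16.8% of promoters. A match describes the letters and is not a measured binding site.

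*Gap43* (gene ID 14432, chromosome 16, 42248552 to 42340651, minus strand), which encodes a growth cone protein of extending axons that denervated Schwann cells also make, did not differ beyond the spread between muscles. Its CPM ran from 0.629 over a median of 1.08 to 1.67 in Control and from 0.765 over 1.12 to 1.47 in FRAIL1 muscles. The FRAIL1 values lay wholly inside the Control span, and the FRAIL1 muscle was higher in 3 of 6 pairs. A log2 fold change of -0.11 had a 95% interval of -0.62 to 0.40 (SE 0.239; edgeR adjusted p = 0.802).

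Per kilobase of exon, the order in Control muscles was *Ntf5* (5.28 ± 0.932 CPM per kb, SD, n = 6), *Ntf3* (1.14 ± 0.195), *Gap43* (0.771 ± 0.245), *Ngfr* (0.538 ± 0.0711), *Gdnf* (0.335 ± 0.110), *Bdnf* (0.171 ± 0.0299) and *Artn* (0.118 ± 0.0342). *Cntf* was left out of this order, since most of its exonic bases are shared and its counts cannot be set on its length. *Ntf5* stood clear of all others, since its lowest Control muscle (4.14 CPM per kb) exceeded the highest *Ntf3* value (1.33 CPM per kb). *Gdnf* and *Bdnf* barely separated, at 0.233 CPM per kb and above against 0.231 and below, and the ranges of the other neighbors in that order overlapped. In FRAIL1 muscles the order was the same except that *Ngfr* (0.788 ± 0.170 CPM per kb) stood above *Gap43* (0.713 ± 0.174). Neighbors overlapped there too, except *Ntf5* and *Ntf3*, and *Gdnf* and *Bdnf* (at least 0.347 against at most 0.343 CPM per kb).

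Among the receptors of the neurotrophins and their partners, *Maged1*, *Sorcs2* and *Kidins220* rose. Of 10 tested genes among 12 neurotrophin receptors and coreceptors, 3 were called higher and 0 lower in FRAIL1 muscles by edgeR's adjusted p, beside 4.43% of all genes called higher and 1.85% called lower. The list's median log2 fold change was 0.25. *Maged1*, encoding the p75 adaptor NRAGE, rose from 39.8 ± 1.92 to 67.6 ± 19.9 CPM (SD, n = 6 each; log2 fold change 0.76, SE 0.141, edgeR adjusted p = 0.0124), with no overlap between the groups. *Sorcs2*, a sortilin-type coreceptor for proneurotrophins, rose from 4.06 ± 0.857 to 5.87 ± 0.696 CPM (SD, n = 6 each; log2 fold change 0.53, SE 0.139, edgeR adjusted p = 0.0369). The scaffold of Trk and p75 signaling *Kidins220* rose by 0.29 on the log2 scale (SE 0.0689, edgeR adjusted p = 0.0275), its lowest FRAIL1 muscle at 56.0 CPM lying above its highest Control muscle at 54.5 CPM. *Bex3*, encoding the p75-binding protein NADE, was just beyond the threshold (log2 fold change 0.60, edgeR adjusted p = 0.0509) and passed it with the replicate block (edgeR adjusted p = 0.0247). Without FRAIL1 muscle 5 the list held 2 calls, since the adjusted p of *Sorcs2* became 0.0524, and without both muscles numbered 5 it held 1, *Maged1*.

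The receptor kinases tested gave no call. TrkB (*Ntrk2*), the receptor of BDNF and neurotrophin 4, ran from 4.74 over a median of 5.47 to 6.67 CPM in Control and from 3.78 over 5.86 to 7.14 CPM in FRAIL1 muscles (log2 fold change -0.0066, 95% interval -0.32 to 0.31, edgeR adjusted p = 0.984). TrkC (*Ntrk3*), at means of 0.567 and 0.467 CPM, had a log2 fold change of -0.27 with a wide 95% interval of -0.96 to 0.42. *Sort1*, encoding sortilin, was the most abundant gene of the list, at 78.2 ± 8.29 and 80.0 ± 5.43 CPM (SD, n = 6 each; log2 fold change 0.03, 95% interval -0.12 to 0.19). *Sorcs3* had too few counts to be tested.

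None of the 7 tested genes of the GDNF family list passed the test in either direction, beside 6.28% of all genes tested. The list's median log2 fold change was 0.16. The kinase RET (*Ret*) stood at 6.81 ± 1.93 CPM in Control and 6.35 ± 1.03 CPM in FRAIL1 muscles (SD, n = 6 each; log2 fold change -0.10, 95% interval -0.47 to 0.27). *Gfra1*, the binding partner of GDNF, ran from 1.95 to 3.20 CPM in Control and from 2.59 to 5.27 CPM in FRAIL1 muscles and was the higher one in FRAIL1 in 6 of 6 pairs. The groups overlapped and the adjusted p was 0.102 in edgeR (log2 fold change 0.46, SE 0.172). *Nrtn*, which encodes the GFRα2 ligand neurturin, was the lower one in FRAIL1 in 6 of 6 pairs, at 2.68 ± 0.482 and 1.98 ± 0.459 CPM (SD, n = 6 each; log2 fold change -0.43, SE 0.177, edgeR adjusted p = 0.129). *Gfra3*, the artemin receptor, was sparsely detected, with means of 0.311 and 0.243 CPM (95% interval of the log2 fold change -1.43 to 0.75). Values for *Sdc3* (log2 fold change 0.26) and *Gfra2* (0.16) did not pass either.

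For the CNTF and LIF family, 7 genes were tested, of which 1 rose and 1 fell, beside 4.43% and 1.85% of all genes tested. *Clcf1*, another ligand of the CNTF receptor, rose from 0.796 ± 0.138 to 1.69 ± 0.498 CPM (SD, n = 6 each; log2 fold change 1.07, SE 0.220, edgeR adjusted p = 0.0151), higher in 5 of 6 pairs, with 8.17% of its exonic bases shared with another gene. *Lifr*, the signaling chain shared by CNTF and LIF, fell from 56.3 ± 3.19 to 42.7 ± 6.13 CPM (SD, n = 6 each; log2 fold change -0.40, SE 0.0865, edgeR adjusted p = 0.0192). Every FRAIL1 muscle was at or below 50.1 CPM and every Control muscle at or above 52.2 CPM. The gp130 gene *Il6st* (log2 fold change -0.19, edgeR adjusted p = 0.118) and *Cntfr* (-0.61, edgeR adjusted p = 0.312) did not pass, and the 6 Control muscles spread from 14.7 to 56.9 CPM for *Cntfr*.

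**Figure D2:**
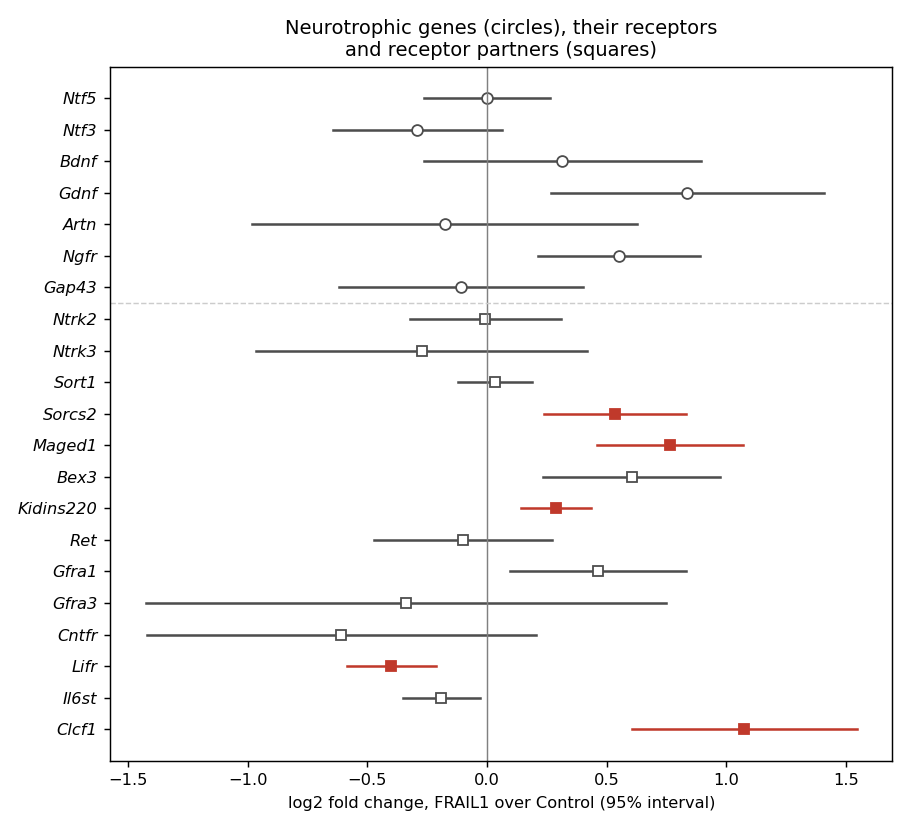
Log2 fold change of FRAIL1 over Control muscles (x axis) with its 95% interval for the 7 tested genes (circles) and for receptors, receptor partners and one further ligand (squares); filled red symbols passed an edgeR adjusted p of 0.05. The intervals of Ngfr and Gdnf lie above 0 without passing after adjustment, and that of Ntf5 is centered on 0.

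Of the 10 tested enzymes and inhibitors that process proneurotrophins, 1 was called higher and 0 lower, beside 4.43% and 1.85% of all genes tested. *Mmp3*, a matrix metalloproteinase, rose from 2.33 ± 0.497 to 5.09 ± 1.92 CPM (SD, n = 6 each; log2 fold change 1.12, SE 0.218, edgeR adjusted p = 0.0124) without overlap. *Furin*, the main intracellular convertase, was nearly level at 53.9 ± 3.26 and 55.1 ± 3.35 CPM (95% interval of the log2 fold change -0.09 to 0.15). *Plau* (log2 fold change 0.27) and *Pcsk7* (-0.00090) did not pass. None of the 10 tested genes among 11 other growth factors directed to nerve passed, with *Cdnf* (log2 fold change -0.38, edgeR adjusted p = 0.124, and 0.0352 with the replicate block), *Agrn* (0.11) and *Manf* (-0.0052) the most abundant. *Mdk* was higher in FRAIL1 in 6 of 6 pairs (log2 fold change 1.399, edgeR adjusted p = 0.0911) and *Ptn* in 5 (1.250, edgeR adjusted p = 0.0751). Without FRAIL1 muscle 5 their log2 fold changes were 0.645 and 0.703. DESeq2 without a block called both higher (adjusted p = 0.0397 and 0.0267). With the block DESeq2 called 0 genes of the list higher and 1 lower, and limma voom 1 higher and 1 lower.

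Schwann cell and axon genes were set beside these values. Of 13 tested repair Schwann cell genes, 3 rose and 0 fell, beside 4.43% and 1.85% of all genes tested, and the list's median log2 fold change was 0.03. *Ncam1* (log2 fold change 1.35, SE 0.157, edgeR adjusted p = 0.00128), *Megf10* (1.07, SE 0.256, adjusted p = 0.0287) and *Tnc* (0.74, SE 0.140, adjusted p = 0.0124) rose without overlap between the groups. All 3 are also known outside Schwann cells: *Ncam1* is made by denervated fibers, *Megf10* by satellite cells and *Tnc* by fibroblasts, and the lists of denervation response and satellite cells hold *Ncam1* and *Megf10* as well. *Jun*, the regulator that defines the repair state, stood at 131 ± 24.0 and 127 ± 10.5 CPM (log2 fold change -0.04, 95% interval -0.25 to 0.18; edgeR adjusted p = 0.846), and *Shh* had too few counts to be tested. Bulk RNA does not show which cells held the *Jun* RNA. All 18 Schwann cell genes together summed to medians of 147 CPM in Control and 135 CPM in FRAIL1 muscles.

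Of 18 Schwann cell genes, all tested, 1 was called higher and 0 lower, close to the 4.43% and 1.85% of all genes. The 1 was *Gldn*, encoding the nodal protein gliomedin (log2 fold change 1.41, SE 0.275, edgeR adjusted p = 0.0124), and the list's median was -0.14. With the replicate block *Prx*, a gene of myelinating Schwann cells, was called lower as well (edgeR adjusted p = 0.0313), and DESeq2 without a block called 2 higher and 2 lower. Each of those fits called 14.1% of all genes in either direction. The myelin genes *Pmp22* (log2 fold change -0.09, edgeR adjusted p = 0.571) and *Mbp* (-0.26, edgeR adjusted p = 0.316) did not pass. Summed over the list, Control muscles held 127 to 200 CPM and FRAIL1 muscles 122 to 161 CPM, and no gene of it was at 0 in all 12 muscles. Higher *Ngfr* in all 6 pairs stood beside a Schwann cell sum that was higher in 2 of 6 pairs.

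Among 17 tested genes of axon growth and neuronal cytoskeleton, 1 rose and 0 fell, beside 4.43% and 1.85% of all genes tested. The list's median log2 fold change was -0.0097. With the replicate block 3 were called higher, *Atf3* (edgeR adjusted p = 0.0330) and *Marcksl1* (0.0205) besides *Tubb2b*. That fit called 14.1% of all genes in either direction. *Tubb2b*, a tubulin of young neurons that regenerating muscle also makes, rose from 2.72 ± 0.667 to 5.71 ± 2.46 CPM (SD, n = 6 each; log2 fold change 1.07, SE 0.247, edgeR adjusted p = 0.0260). Of 6 tested neuronal markers *Uchl1* rose, from 6.98 ± 1.05 to 20.1 ± 2.87 CPM (log2 fold change 1.53, SE 0.115, edgeR adjusted p = 1.27e-05), although another gene covers 18.1% of its exonic bases. *Snap25* (log2 fold change -0.06), *Syt1* (-0.14) and *Syn1* (-0.19) did not pass, *Chat*, *Slc18a3* and *Isl1* had too few counts to be tested, and *Mnx1* was at 0 in all 12 muscles. Axonal RNA aside, motor neuron cell bodies lie outside the TA.

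Genes by which a muscle fiber is known to answer the loss of its nerve gave the largest number of calls among the lists examined: 11 of 19 rose and 0 fell, beside 4.43% and 1.85% of all genes, with a median log2 fold change of 0.73. The fetal acetylcholine receptor subunit *Chrng* rose from 3.51 ± 1.14 to 12.9 ± 3.56 CPM (log2 fold change 1.88, SE 0.228, edgeR adjusted p = 0.00160), and *Chrna1* from 29.5 ± 3.56 to 81.0 ± 19.2 CPM (1.46, SE 0.142, adjusted p = 0.000339; SD, n = 6 each). *Sln*, encoding the calcium pump regulator sarcolipin, rose by 2.43 on the log2 scale (SE 0.308), and *Myog*, encoding myogenin, by 1.46 (SE 0.261). The developmental myosins *Myh3* (log2 fold change 2.16) and *Myh8* (1.84), which also mark regenerating fibers, rose as well. These 6 genes rose in 6 of 6 pairs with no overlap between the groups. *Trim63* (log2 fold change -0.31) and *Fbxo32* (-0.50), which encode ubiquitin ligases of atrophy, and *Ache* (0.16) did not pass. With the replicate block, or without FRAIL1 muscle 5, 10 of the 19 were called, and DESeq2 with the block called 11 higher and 2 lower. Earlier results of these data were known when the list was chosen, so its count is no independent evidence of a direction.

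**Figure D3:**
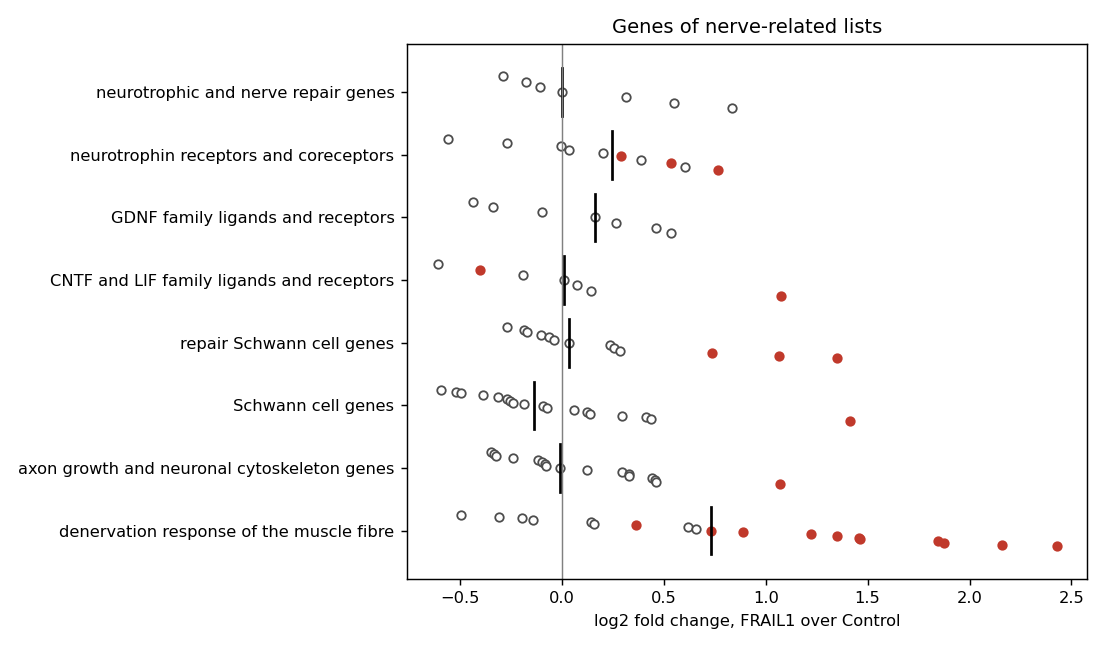
Log2 fold change of FRAIL1 over Control muscles (x axis) of each tested gene in 8 lists of nerve-related genes; filled red points passed an edgeR adjusted p of 0.05, open points did not, and vertical bars are list medians. Points of the nerve and Schwann cell lists lie on both sides of 0, while 11 of 19 genes of the denervation response lie to the right as filled points.

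Markers of other cell types moved with the groups as well, and the part of such cells in the values of *Ngfr* and *Gdnf* was not tested. The 8 macrophage markers summed to 166 to 257 CPM in Control and 204 to 577 CPM in FRAIL1 muscles, higher in FRAIL1 in 6 of 6 pairs, and 1 of them, *Cx3cr1*, was called higher. The 8 fibroblast markers summed to 1030 to 1849 CPM in Control and 1953 to 4977 CPM in FRAIL1 muscles, with 0 calls. *Col3a1* (means of 731 and 1293 CPM) and *Col1a1* (449 and 927 CPM) were the largest parts of that sum, whereas *Dcn* was level at 184 and 186 CPM. Of the 8 estimates 6 were above 0 and 2 below. Satellite cell markers, 7 genes with 1 call (*Megf10*), summed to 43.2 to 49.7 and 50.3 to 70.9 CPM. Endothelial markers went the other way, with 2 of 8 called lower (*Tek* and *Vwf*) and sums of 485 to 580 and 398 to 500 CPM. Perineurial markers (5 tested, sums of 20.9 to 29.6 and 17.2 to 24.3 CPM) and smooth muscle and pericyte markers (7 tested, 408 to 521 and 373 to 479 CPM) gave 0 calls in either direction. More of these markers were called in other fits, in the same directions, and more of all genes tested were called there as well. Over all genes, edgeR called 4.43% higher and 1.85% lower without a block, and 14.1% in either direction with the replicate block. DESeq2 called 14.1% without and 19.0% with the block, and limma voom 11.8%. With the replicate block edgeR called 4 macrophage and 3 satellite cell markers higher, 4 endothelial and 2 smooth muscle and pericyte markers lower, and 0 fibroblast markers. DESeq2 called 2 fibroblast, 4 macrophage and 3 satellite cell markers higher and 3 endothelial and 1 smooth muscle and pericyte markers lower, and with the block 3, 5, 4, 6 and 3. Limma voom called 2 fibroblast, 2 macrophage and 1 satellite cell markers higher and 3 endothelial and 1 smooth muscle and pericyte markers lower. Of the 8 fiber markers *Ckm* was called lower (log2 fold change -0.38, edgeR adjusted p = 0.0482), and 15.5% of its exonic bases lie in another gene too. *Myh4* did not pass (log2 fold change -0.43, edgeR adjusted p = 0.0548), though its groups did not overlap. With the replicate block edgeR called 3 fiber markers lower. DESeq2, with and without the block, and limma voom each called 4 lower. Without both muscles numbered 5, edgeR called 0.

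**Figure D4:**
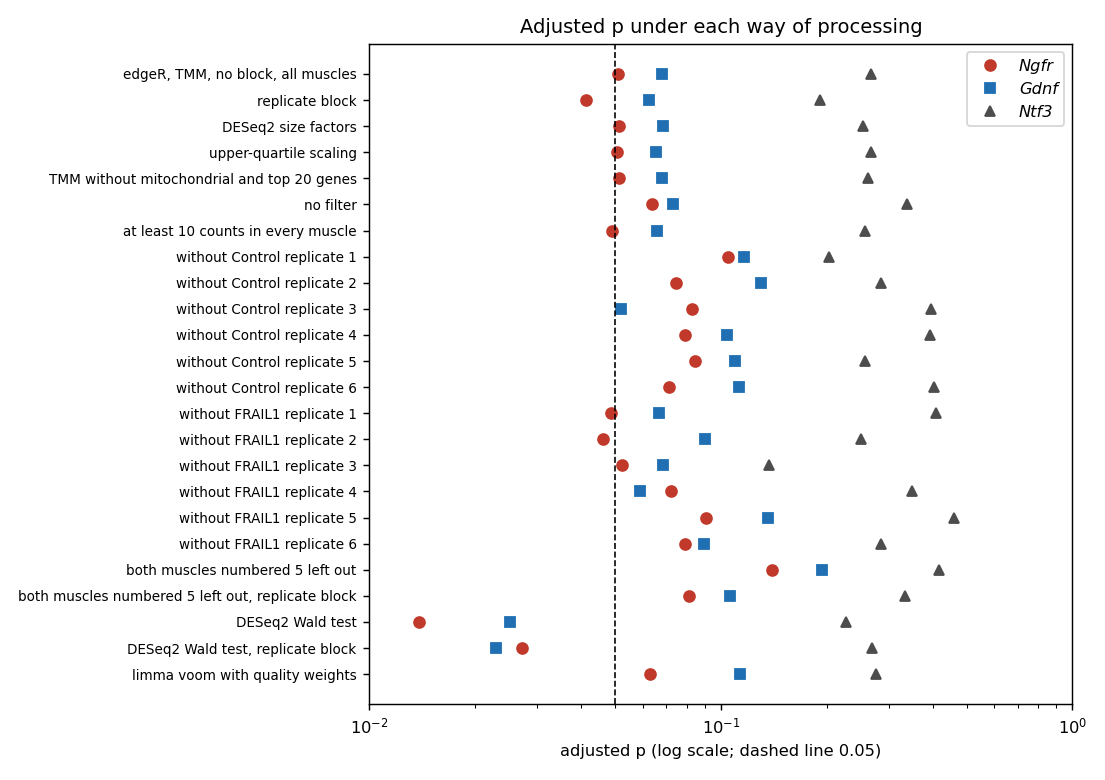
Adjusted p (x axis, log scale) of Ngfr, Gdnf and Ntf3 in the test of all 12 muscles and under each of 23 alternatives (rows); the dashed line marks 0.05. Ngfr crosses the line in 6 alternatives and Gdnf in 2, and Ntf3 stays to the right of it in all of them.

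Within groups, the genes whose level moved most like that of a member were found from the correlation of log2 CPM deviations from the group mean over the 12 muscles, for members with at least 50 counts on average. These are the highest correlations among all genes tested, over few muscles that share their library scaling, and they are given as a description. For *Ngfr* they were *Gm7334* (Pearson r 0.955), *Ets1* (0.934) and *Tcf4* (0.929), and for *Gdnf* *Gmps* (0.952), *Ints13* (0.910) and *Aff4* (0.878). *Ntf3* moved most like *Fzd9* (0.931), *Zfp110* (0.917) and *Dixdc1* (0.915), and *Ntf5* most like *Farp2* (0.950), *Slc29a2* (0.923) and *Lclat1* (0.905). The genes most like *Bdnf* were *Mir133a-2* (0.923), *Dhdds* (0.910) and *Rpl37a* (0.905), and those most like *Gap43* were *Gm21596* (0.884), *Ess2* (0.884) and *Casp6* (0.874). None of these 18 genes was itself called between FRAIL1 and Control muscles.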

How the data were processed

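The authors trimmed paired-end reads with Trimmomatic, mapped them to mm10 with STAR 2.7.8a and counted them per gene with featureCounts 2.0.1, as their processing notes name the tools, and deposited whole-number read counts of 12 muscles without normalization. The strand setting and the annotation used for counting are not given in the sources used here. Counts are listed by NCBI Gene ID, and 25275 of 27179 IDs had a symbol and coordinates in GRCm38; the others held 0.280% of the counts.

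Counts were filtered with filterByExpr (15502 genes tested), scaled by TMM and compared between 6 FRAIL1 and 6 Control muscles in R 4.3.3 by edgeR 4.0.16 (glmQLFit with robust = TRUE, glmQLFTest), without a block. P-values were adjusted over all genes tested (Benjamini-Hochberg) and called under 0.05. The 95% intervals are those of this model. *Cntf*, which the filter left out, was compared with an exact permutation test in scipy 1.17.1. DESeq2 1.42.0 and limma 3.58.1 (voom with quality weights), with and without a replicate block where stated, other scalings and filters, and each muscle left out in turn were the alternatives. A BLAST 2.17.0 search of the 8 genes' transcripts for near-identical stretches (98% identity, 100 bases) found only their overlapping neighbors.

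The series states that each mouse carried both plasmids, and both groups are numbered 1 to 6; no label says that equal numbers are 1 mouse, and they were taken as such. Deviations from the group means correlated by 0.254, 0.162, 0.282, 0.263, 0.0547 and 0.185 between muscles of number 1 to 6, and by -0.0400 on average between other muscles of the 2 groups. No pair of libraries within a group agreed within sampling noise (chi-square per degree of freedom 14.5 or more). Depth limits *Artn* and *Cntf* most. For the other genes the error given is the spread between muscles, which holds counting noise as well. That noise matters at the counts per muscle of *Gap43* (31 to 76), *Bdnf* (33 to 114), *Gdnf* (43 to 191) and *Ngfr* (67 to 198). It was not separated from differences between muscles.

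The 8 genes, the lists and the rule for naming genes were chosen with earlier results of these data known. By that rule all 8 genes, the receptors of their ligands, up to 6 genes of a list with an adjusted p under 0.05 by size of change, up to 3 others by mean CPM and the 3 genes most like each member are named. *Runx1*, *Nrtn*, *Prx*, *Mdk*, *Ptn*, listed genes with too few counts to be tested and genes that overlap a member were named besides, after their values were seen. Some genes that the rule would name are not reported here. Exon usage and proteins were not analysed here.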

Additional observations from a re-analysis of the deposited data

Results flagged for a closer look

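In 3 of the 16 sets of 6 muscles (8 genes, each in Control and FRAIL1 muscles), 1 muscle lay far from the other 5 by Dixon's criterion, which chance alone flags in about 1 of 20 sets. For *Bdnf*, Control muscle 5 held 1.43 CPM (61 counts) and the other Control muscles 0.936 to 1.03 CPM (44 to 56 counts). For *Gdnf*, Control muscle 3 held 2.01 CPM and the others 0.857 to 1.22 CPM, and without that muscle the log2 fold change was 1.03 (edgeR adjusted p = 0.0521). For *Cntf*, FRAIL1 muscle 2 held 0.155 CPM (9 counts) and the others 0.0187 to 0.0607 CPM.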

How the results depend on the processing

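*Ngfr*, *Gdnf* and *Bdnf* kept higher and *Ntf3* and *Artn* lower estimates in FRAIL1 muscles under every alternative run. The estimate of *Ntf5*, near 0, changed sign with the replicate block (0.0040), upper-quartile scaling (0.0041) and the filter of 10 counts in every muscle (0.0022), and ran from -0.090 to 0.063 with 1 muscle left out; that of *Gap43* ran from -0.24 to 0.017 with 1 muscle left out, the last without Control muscle 6. Of the members tested, 0 were called by edgeR, 1 (*Ngfr*) with the replicate block or the filter of 10 counts, 2 (*Ngfr* and *Gdnf*) by DESeq2 with and without the replicate block, and 0 to 1 with 1 muscle left out, the 1 being *Ngfr* without FRAIL1 muscle 1 or 2. Over all genes, 974 were called, 2186 in the paired fit with the replicate block, 2154 by DESeq2, 2829 by DESeq2 with the replicate block, 1836 by limma voom and 2305 with the replicate block after both muscles numbered 5 were left out. With 1 muscle left out the number ran from 364 (without FRAIL1 muscle 1) to 2110 (without FRAIL1 muscle 3). It was 1579 without FRAIL1 muscle 2, 400 to 537 without any 1 of the 6 Control muscles, and 494 and 601 without FRAIL1 muscles 4 and 6. The cause was not tested. For *Cntf* the fit without a filter gave an edgeR adjusted p of 0.932. DESeq2 gave no adjusted p for *Cntf*, nor for *Artn* with the block. The block changed no other member's call.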
